A study of Mus musculus with 18 samples.

Results

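The SPRR, LCE and S100A genes are 3 families of small genes that lie close together on mouse chromosome 3 and are best known from the skin. Every gene was taken whose symbol begins with Sprr, Lce or S100a followed by a digit and which has a probe with that symbol alone, and where a gene had more than 1 such probe the one with the highest mean log2 signal over all arrays was used. This gave 46 of the 19938 genes with a single-symbol probe: 13 SPRR genes, 19 LCE genes and 14 S100A genes. The rule uses symbols alone. Sprr2a1, Sprr2a2, Sprr2a3 and Lce3d have only probes shared with other genes of their family, which are described separately, and Sprr2j-ps is a pseudogene.

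Small proline-rich (SPRR) proteins are cross-linked by transglutaminases into the cornified envelope, the protein shell that replaces the plasma membrane of dying keratinocytes, and are also induced in other stratified epithelia and after injury. Late cornified envelope (LCE) proteins are added to that shell during the last steps of epidermal differentiation. S100A proteins are dimers, most of them calcium-binding. They have broader roles, in membrane repair, the cytoskeleton, migration and innate immunity, and most of them are not restricted to skin. Together the families form most of the epidermal differentiation complex.

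The cells came from mouse embryonic fibroblasts (MEFs) that carry the ROSA-rtTA transactivator and a Nanog-GFP reporter. A piggyBac transposon, PB-TAC, delivered 1 of 2 polycistronic cassettes of Oct4, Klf4, c-Myc and Sox2 under a doxycycline-responsive promoter together with mCherry. The cassettes differ in the length of the Klf4 coding sequence, and OK+9MS is called high-KLF4 and OKMS low-KLF4. Reprogramming cells were kept in 1 µg/mL doxycycline, and mCherry+ cells, which express the cassette, were sorted on days 2, 4, 8 and 18. Day 8 had 2 arrays per cassette and the other days 1. The remaining groups had 2 arrays each: induced pluripotent stem cell (iPSC) clones A10 and H10 from high-KLF4, clones A7 and A9 from low-KLF4, primary keratinocytes grown in culture from pups at postnatal day 2, and embryonic stem cells of the Nanog-GFP line 1A2 (mESCs). This makes 18 arrays in 12 groups. The study describes the day 8, keratinocyte and mESC arrays as independent experiments, but the mESC arrays are of a single line and each iPSC array is a separate clone, so p-values measure the spread between such samples. In sorted bulk samples, fewer cells with a transcript and less of it per cell cannot be told apart.

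Values are signal intensities on a linear scale, and the median of an array lay between 139.4 and 161.6. No detection call comes with them, so the signal below which a gene counts as silent is not known, and levels are compared between arrays for the same probe only. All 12 keratinocyte markers, Krt5 and Krt14 among them, were higher in keratinocytes than in mESCs, and of 5 markers of the differentiated layers Ivl and Tgm1 were higher, whereas Krt1, Krt10 and Tgm3 did not pass the test (limma adjusted p = 0.401, 0.27 and 0.139). The day 8 arrays numbered 2 stood apart from those numbered 1 in both cassettes: all 22 fibroblast markers were lower on them, with summed signals of 71535 on array 1 and 31233 on array 2 in high-KLF4 cells, and of 75319 and 28563 in low-KLF4 cells. Of the 46 genes, 24 were higher and 22 lower on array 2 in high-KLF4 cells, and 19 were higher and 27 lower in low-KLF4 cells. Differences between cassettes on day 8 are therefore given within each array number as well for Sprr1a, Sprr2b, S100a14, S100a1 and S100a13. The Klf4 probe read 793 and 906 in high-KLF4 cells and 1038 and 974 in low-KLF4 cells on day 8, and whether it reads the cassette is not given in the sources used here.

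The genes lie between positions 90511034 and 93564645 of chromosome 3 (GRCm38.p6), a span of 3.05 Mb. The first 12 S100A genes occupy 90511034 to 90695721, the SPRR genes 92316705 to 92500493 (0.184 Mb), the LCE genes 92604821 to 92993426 (0.389 Mb), and S100a11 and S100a10 follow at 93520496 to 93564645. The annotated span of S100a3, 90560356 to 90602706, takes in that of S100a2, and where in this span its probe lies is not given in the sources used here. RefSeq promoter windows, of 250 bases before and 50 bases after an annotated start site, were at hand for 40 of the 46 genes (44 windows; S100a14, S100a10, S100a2, Sprr2g, Sprr2j-ps and Lce1f had none). The 150 bases before the start site are printed 5′ to 3′ on the gene's own strand for 5 SPRR genes, of which Sprr1a, Sprr1b, Sprr3 and Sprr2b were higher in high-KLF4 cells and Sprr2d did not pass the test, for the S100A gene with the smallest p-value on day 8 (its upstream site), and for S100a8, which was high in keratinocytes alone. Capitals mark matches on either strand to CACCC, the core of sites bound by KLF factors (GGGTG on the opposite strand), GGGNGTGG, a longer KLF4 site, TGANTCA, the AP-1 site, TATAAA, the TATA box, ATGCAAAT, the octamer bound by POU factors, and CCGGAAGT, an ETS site.
Sprr1a (chr3:92485882-92486031, minus strand): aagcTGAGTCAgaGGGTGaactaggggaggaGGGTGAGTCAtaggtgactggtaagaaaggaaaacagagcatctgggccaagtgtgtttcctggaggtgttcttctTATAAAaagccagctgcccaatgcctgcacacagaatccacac
Sprr1b (chr3:92438780-92438929, minus strand): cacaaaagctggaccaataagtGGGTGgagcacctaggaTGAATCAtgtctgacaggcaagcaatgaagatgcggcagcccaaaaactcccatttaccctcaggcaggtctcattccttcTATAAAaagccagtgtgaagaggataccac
Sprr3 (chr3:92458721-92458870, minus strand): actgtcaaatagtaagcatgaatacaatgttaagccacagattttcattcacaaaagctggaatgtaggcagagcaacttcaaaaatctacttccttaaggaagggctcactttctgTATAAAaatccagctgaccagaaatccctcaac
Sprr2b (chr3:92316555-92316704, plus strand): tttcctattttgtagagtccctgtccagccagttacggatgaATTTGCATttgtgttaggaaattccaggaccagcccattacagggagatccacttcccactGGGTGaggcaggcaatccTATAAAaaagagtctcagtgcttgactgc
Sprr2d (chr3:92338990-92339139, plus strand): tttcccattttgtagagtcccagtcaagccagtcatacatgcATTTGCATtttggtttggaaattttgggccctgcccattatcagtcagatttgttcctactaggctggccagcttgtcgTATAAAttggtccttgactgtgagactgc
S100a16 (chr3:90537104-90537253, plus strand): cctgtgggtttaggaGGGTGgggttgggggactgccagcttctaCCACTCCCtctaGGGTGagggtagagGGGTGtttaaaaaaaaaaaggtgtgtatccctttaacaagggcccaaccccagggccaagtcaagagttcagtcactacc
S100a8 (chr3:90668921-90669070, plus strand): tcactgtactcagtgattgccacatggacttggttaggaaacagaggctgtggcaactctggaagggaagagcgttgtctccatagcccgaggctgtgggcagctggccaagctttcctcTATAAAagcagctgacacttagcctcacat

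In the full windows of 300 bases, TGANTCA was present in 9 of 11 SPRR windows, in 0 of 18 LCE windows and in 2 of 15 S100A windows, against 7.81% of all 32851 windows. TATAAA was present in 10 of 11 SPRR, 3 of 18 LCE and 4 of 15 S100A windows, against 13.6% of all windows. The matches in Lce6a and Lce3e are on the opposite strand and begin at -218 and -243 from the start site. That in S100a9 begins at 0, so it does not lie before the start site. Most SPRR windows with TGANTCA or TATAAA are those of the Sprr2 genes, which resemble each other and are not independent stretches. The octamer was found in 7 of 11 SPRR windows, all of them Sprr2 genes and Sprr2b among them, and in none of the other 33 windows, against 1.74% of all windows. CACCC was present in 24 of the 44 windows, against 57.5% of all windows, and in 11 of the 12 windows of genes that were higher in high-KLF4 cells on day 8. These 12 windows are not separate genes. S100a3 and S100a16 have more than 1 window each and S100a14 has none. The windows of S100a1 and S100a13 overlap and share CACCC matches, so the 11 of 12 are not independent stretches. The longer KLF4 site was found in 1 of the 44 windows, the upstream window of S100a16, against 17.6% of all windows, and the ETS site in 0 of the 44, against 3.89%. In Sprr1a the match to CACCC nearest the gene (as GGGTG) overlaps an AP-1 match, in the stretch GGGTGAGTCA, so these are not separate stretches. In the 250 bases before the start site, Sprr2b was 61.3% to 64.3% identical to the other Sprr2 genes compared. Pairs among those other genes ranged from 57.0% (Sprr2f and Sprr2h) to 88.9% (Sprr2d and Sprr2e), so the values of Sprr2b lay within that range. These are matches of letters in a window and say nothing of which factors bind there.

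**Figure D1:**
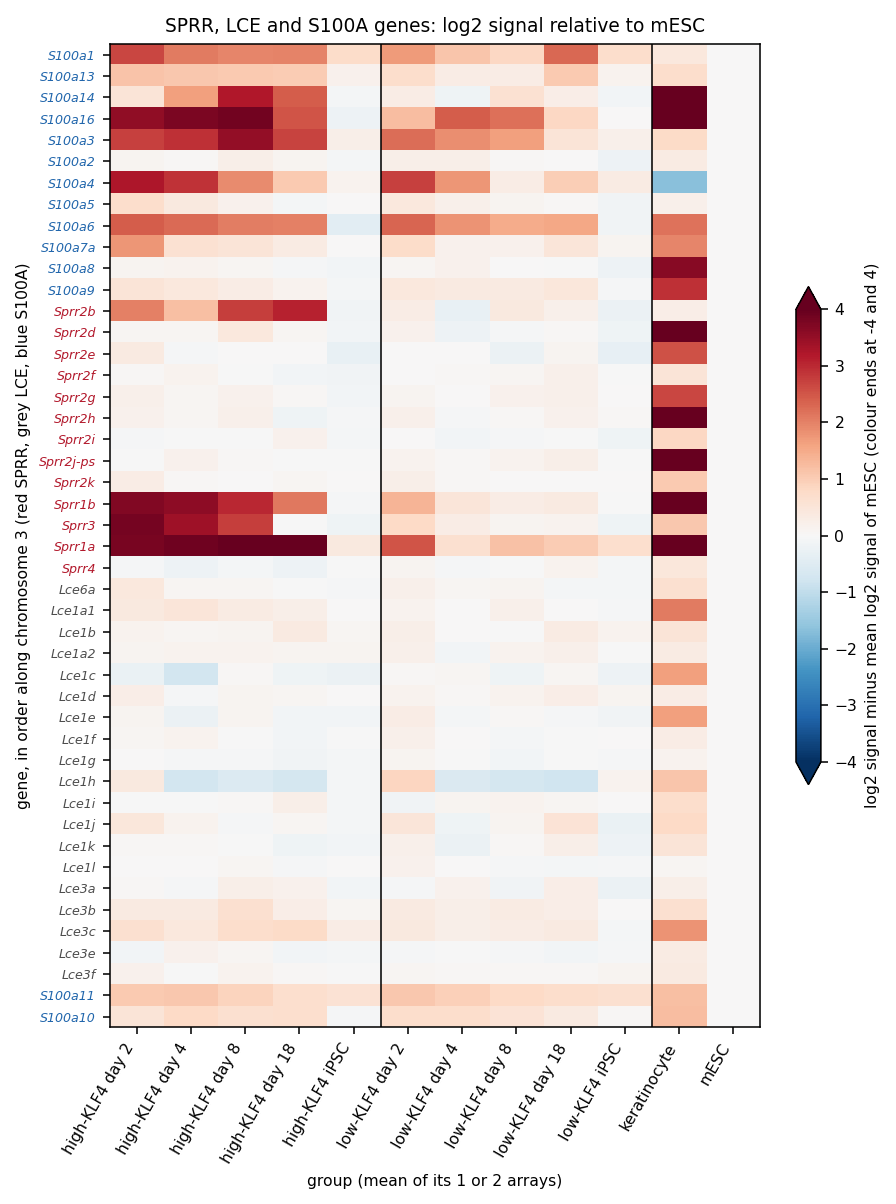
Mean log2 signal of each of the 46 genes (rows, in order along chromosome 3) in each of the 12 groups (columns), as the difference from the mESC mean, with colours ending at -4 and 4. Keratinocytes held the highest mean of 36 genes, and Sprr1a, Sprr1b, Sprr3, Sprr2b, S100a14, S100a16 and S100a3 stand out in high-KLF4 columns between days 2 and 18, Sprr3 on days 2 to 8 alone and S100a14 from day 4.

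Across the 12 groups, 36 of the 46 genes had their highest mean in keratinocytes: 11 SPRR, 17 LCE and 8 S100A genes. The exceptions among the SPRR genes were Sprr3, highest in high-KLF4 cells on day 2, and Sprr2b, highest in high-KLF4 cells on day 18. S100a1, S100a4, S100a5, S100a6 and S100a13 were highest in high-KLF4 cells on day 2 and S100a3 in high-KLF4 cells on day 8. Lce1l and Lce3a had their highest means in low-KLF4 cells, on days 2 and 18, but varied little. Of the 46 genes, 18, of which 12 were LCE genes, stayed below the array median on all 18 arrays, and 16 had a range of less than 1 on the log2 scale. The shares of all tested probes for these counts, and for the 36 genes highest in keratinocytes, were not computed, so the counts are descriptions only. Only S100a1, S100a6, S100a10, S100a11, S100a13, S100a16, Lce1j and Lce1k were above the array median on all 18.

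The first question was which of these genes were higher with the high-KLF4 cassette in mCherry+ cells on day 8. Sprr1a, Sprr1b, Sprr3, Sprr2b, S100a1, S100a3, S100a13, S100a14 and S100a16 were higher in high-KLF4 than in low-KLF4 cells, by 1.68-fold to 10.2-fold, and 0 genes were lower. These 9 are 19.6% of the 46, whereas 2.71% of all 23410 tested probes were higher and 1.29% lower (limma over 18 arrays in 12 groups, Benjamini-Hochberg adjusted p under 0.05). They comprised 4 of 13 SPRR, 0 of 19 LCE and 5 of 14 S100A genes. The median log2 difference was 0.17 for the SPRR genes, 0.11 for the LCE genes and 0.45 for the S100A genes, and -0.03 over all tested probes (2 high-KLF4 against 2 low-KLF4 arrays). In 22 of 46 genes both high-KLF4 arrays lay above both low-KLF4 arrays, which was so for 16.6% of all tested probes, and in 2 genes, Sprr2f and Sprr2j-ps, both lay below, against 18.8%. Keratinocyte markers moved with the cassette as well: 5 of 12 were higher in high-KLF4 cells, and their summed signals were 18670 and 26702 in high-KLF4 cells, against 6929 and 9478 in low-KLF4 cells. Their part in the differences of the SPRR and S100A genes was not tested.

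**Figure D2:**
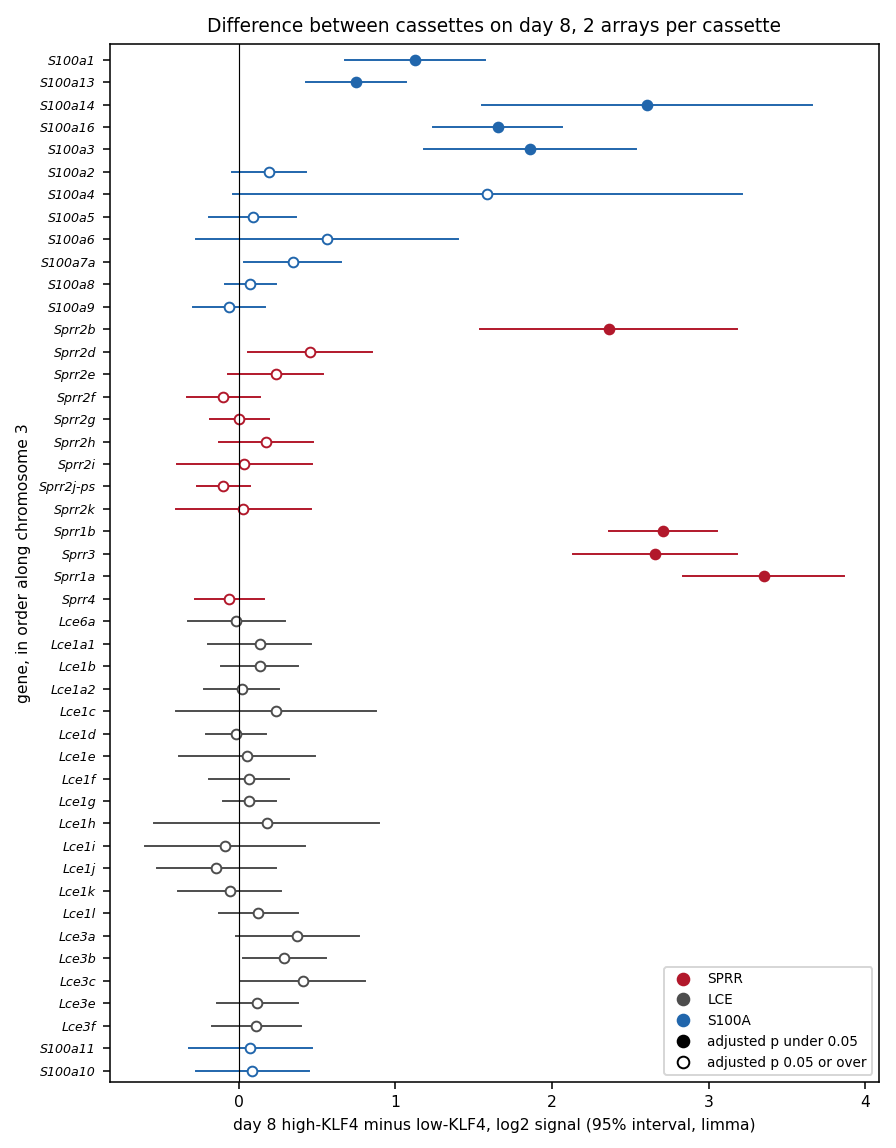
Log2 difference of day 8 high-KLF4 minus low-KLF4 for each gene (rows, in order along chromosome 3), with the 95% interval from limma; filled points passed an adjusted p of 0.05, and colours give the family. The 9 filled points lie in the first S100A block, at Sprr2b and at the adjoining Sprr1b, Sprr3 and Sprr1a, and the 19 LCE genes range from -0.14 to 0.41.

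Sprr1a, an envelope precursor that is also induced in injured neurons, had the largest difference of the 46 genes. Its signal on day 8 was 2836 and 3772 in high-KLF4 cells, against 381 and 269 in low-KLF4 cells, a 10.2-fold difference (log2 3.35, SE 0.22, limma adjusted p = 0.000232). The groups did not overlap, and the log2 difference was 2.90 within array number 1 and 3.81 within number 2. The signal on days 2, 4 and 18 was 1991.5, 2134 and 2246 in high-KLF4 cells, against 818, 222 and 288 in low-KLF4 cells. High-KLF4 was above low-KLF4 on every day, and the low-KLF4 signal was highest on day 2. Sprr1a was at 202 and 172 in high-KLF4 clones and at 265 and 194 in low-KLF4 clones, against 157 and 129 in mESCs, and at 9814 and 9923 in keratinocytes. It was thus 17.5-fold higher in high-KLF4 day 8 cells than in high-KLF4 clones (adjusted p = 1.04e-05, limma), and lower than in keratinocytes, at 0.331 of their level (adjusted p = 0.00133, limma).

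Sprr1b, a gene of the same type on the other side of Sprr3, was 6.54-fold higher in high-KLF4 cells on day 8. It had signals of 449.6 and 623 in high-KLF4 cells, against 82.1 and 79.9 in low-KLF4 cells (log2 2.71, SE 0.15, limma adjusted p = 9.89e-05). The low-KLF4 signals lay close to those of clones and mESCs, which ranged from 61.4 to 70.8. At days 2, 4 and 18 Sprr1b read 855, 782 and 286 in high-KLF4 cells, against 168, 91.7 and 85.0 in low-KLF4 cells. In both cassettes the signal on day 2 was the highest of the sorted cells, and high-KLF4 stayed above low-KLF4 on all days. Keratinocytes reached 6014 and 6598, and day 8 high-KLF4 cells had 0.084 of that level (log2 -3.57, SE 0.15, limma adjusted p = 1.98e-06).

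Sprr3, which is expressed mainly in internal stratified epithelia such as the oesophagus, followed another course. On day 8 it was at 553 and 319.6 in high-KLF4 cells, against 71.8 and 61.9 in low-KLF4 cells, a 6.31-fold difference (log2 2.66, SE 0.23, limma adjusted p = 0.000811). The earlier signals were 871 on day 2 and 649 on day 4 in high-KLF4 cells, against 106 and 75.0 in low-KLF4 cells. By day 18 it was at 61.3 in high-KLF4 cells and 67.2 in low-KLF4 cells, so the cassettes no longer differed in that direction on the single arrays. All clones and mESCs read between 52.6 and 67.5. Keratinocytes had 123 and 135, so day 8 high-KLF4 cells were 3.25-fold above them (adjusted p = 0.00103, limma), in contrast to Sprr1a and Sprr1b.

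Sprr2b, a member of the Sprr2 group, was 5.14-fold higher in high-KLF4 cells on day 8, with 174 and 435 in high-KLF4 cells, against 51.0 and 56.4 in low-KLF4 cells (log2 2.36, SE 0.36, limma adjusted p = 0.00998). The groups did not overlap, but the high-KLF4 arrays differed from each other by more than for Sprr1a or Sprr1b, and the log2 difference was 1.77 within array number 1 and 2.95 within number 2. On days 2, 4 and 18 it was at 165, 93.5 and 345 in high-KLF4 cells, against 50.4, 33.5 and 46.9 in low-KLF4 cells. The signal was thus high on day 18, where that of Sprr3 was low. Clones read between 29.6 and 40.4 and mESCs 38.4 and 43.3. Keratinocytes, at 46.9 and 50.8, lay within the range of the low-KLF4 arrays, and day 8 high-KLF4 cells were 5.65-fold above keratinocytes (adjusted p = 0.00146, limma).

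The other Sprr2 genes, precursors of the same kind, and Sprr4 did not pass the test between cassettes on day 8. Sprr2d, at 88.7 and 134 in high-KLF4 cells, against 81.8 and 77.2 in low-KLF4 cells (log2 0.45, SE 0.17, limma adjusted p = 0.229), was high in keratinocytes alone, at 2050.0 and 1899.9, against 88.9 and 75.3 in mESCs. Sprr2h read 37.7 and 45.3 in high-KLF4 cells and 32.9 and 40.7 in low-KLF4 cells on day 8, and 745 and 846 in keratinocytes, against 37.2 and 34.4 in mESCs. These genes were 24.1-fold and 22.2-fold higher in keratinocytes than in mESCs and did not pass the test between day 8 cells and clones in either cassette (limma adjusted p = 0.0613 and 0.184 in high-KLF4 cells and 0.652 and 0.962 in low-KLF4 cells). The pseudogene Sprr2j-ps had 37.9 and 37.1 in high-KLF4 cells and 39.8 and 40.6 in low-KLF4 cells on day 8, and 836 and 855 in keratinocytes, against 35.1 and 37.9 in mESCs. Sprr2f, with 32.7 and 32.4 in high-KLF4 cells and 34.1 and 35.7 in low-KLF4 cells, had the smallest value of the family together with Sprr2j-ps (log2 -0.10 each, limma adjusted p = 0.742 and 0.612). Sprr2e, Sprr2g, Sprr2i, Sprr2k and Sprr4 differed between cassettes by -0.06 to 0.23 on the log2 scale. Across the 18 arrays Sprr2d and Sprr2h had a Pearson r of 0.99 and Sprr2b and Sprr2d of -0.04, where the points share arrays within 12 groups and the keratinocytes lie far from the rest.

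The probe shared by Sprr2a1, Sprr2a2, Sprr2a3 and Sprr2b, which cannot be assigned to any of them, gave 2334 and 4844 on day 8 in high-KLF4 cells, against 523 and 336 in low-KLF4 cells (8.02-fold, SE 0.40 on the log2 scale, limma adjusted p = 0.0059). The probes shared by Sprr2a1 and Sprr2a3 alone carried identical values and were counted as 1, with 973 and 1864.0 in high-KLF4 cells, against 258 and 184 in low-KLF4 cells (log2 2.63, SE 0.35, limma adjusted p = 0.00619). On day 18 the first of these read 4931 in high-KLF4 cells and 2789.6 in low-KLF4 cells, and the second 2129.5 in high-KLF4 cells and 1521 in low-KLF4 cells. In low-KLF4 these day 18 signals were the highest of any day, whereas Sprr2b's own probe read 46.9 there. Keratinocytes had 10710.0 and 10069 for the first and 7112 and 6085 for the second, against 496 and 433 and 232 and 228 in mESCs.

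**Figure D3:**
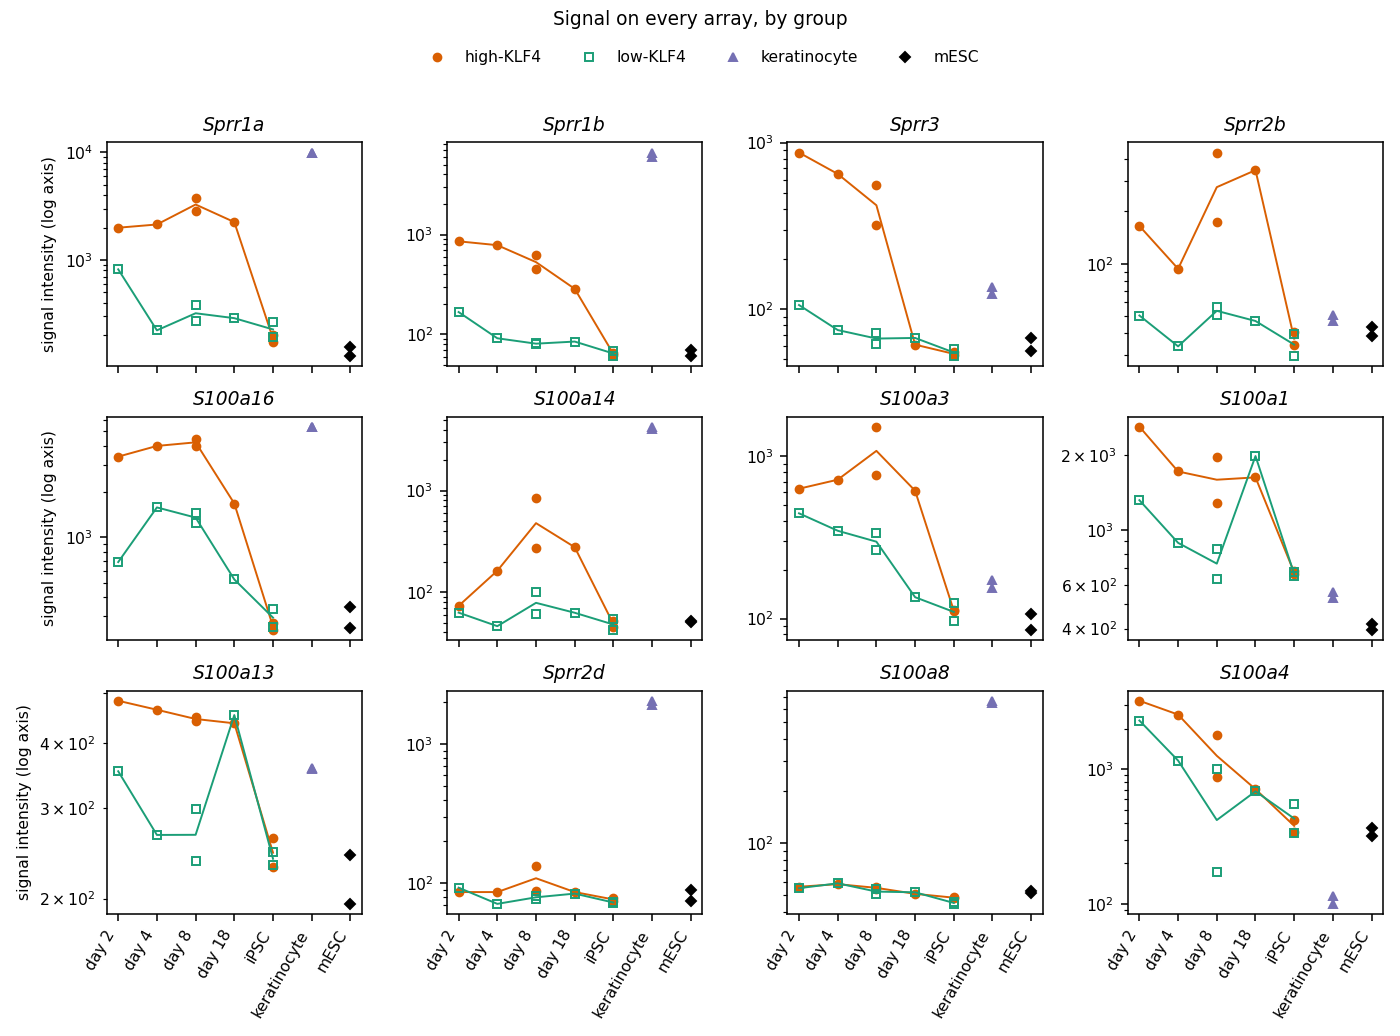
Signal intensity on every array (log axis) for the 9 genes higher in high-KLF4 cells on day 8 and for Sprr2d, S100a8 and S100a4; circles are high-KLF4, open squares low-KLF4, triangles keratinocytes and diamonds mESCs, and lines join geometric means of a cassette. Sprr1a, Sprr1b, Sprr2b, S100a3, S100a14 and S100a16 are above low-KLF4 on all 4 days in high-KLF4 cells and meet low-KLF4 in the clones, and Sprr2d and S100a8 are high in keratinocytes alone, at 2050.0 and 1899.9 and at 645 and 666.

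None of the 19 LCE genes passed the test between cassettes on day 8, and 2 had an unadjusted p under 0.05 (limma). The share of all tested probes with an unadjusted p under 0.05 was not computed, here or in later comparisons. Counts of genes at that level are therefore descriptions only. Their log2 differences ranged from -0.14 to 0.41. Lce3c, one of the Lce3 genes that in human skin are induced by damage or inflammation, had the largest, with 89.6 and 115 in high-KLF4 cells, against 80.5 and 72.7 in low-KLF4 cells (log2 0.41, SE 0.17, limma adjusted p = 0.297). Lce3a followed with 68.8 and 49.8 in high-KLF4 cells, against 45.3 and 45.2 in low-KLF4 cells. In both genes the high-KLF4 arrays lay just above the low-KLF4 arrays, and Lce3c reached 251 and 189.8 in keratinocytes, against 66.2 and 58.9 in mESCs. The lowest were Lce1j, with 324 and 236 in high-KLF4 cells and 309 and 302 in low-KLF4 cells, and Lce1i, with 53.9 and 45.7 in high-KLF4 cells and 55.7 and 50.2 in low-KLF4 cells, where the groups overlapped. The probe shared by the Lce3 genes read 292 and 212 in high-KLF4 cells, against 255 and 206 in low-KLF4 cells (limma adjusted p = 0.82). Outside keratinocytes the highest signal of any LCE gene other than Lce1e, Lce1h, Lce1j, Lce1k and Lce3c was 82.1, for Lce1c, and over the 19 genes the upper bound of the 95% interval of the day 8 difference was at most 0.89 on the log2 scale.

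Among the S100A genes, S100a16 and S100a14, which are neighbours and are both expressed in epithelia, had the smallest p-value and the largest difference. S100a16 was at 4012 and 4478 in high-KLF4 cells, against 1454 and 1250.3 in low-KLF4 cells, a 3.14-fold difference (log2 1.65, SE 0.18, limma adjusted p = 0.00223). Both cassettes lay above the clones, at 269 and 244 for high-KLF4 and 338 and 256 for low-KLF4, and above mESCs, at 250.4 and 345. On days 2, 4 and 18 it was at 3409.8, 4013 and 1671 in high-KLF4 cells, against 685, 1574 and 526 in low-KLF4 cells. The difference between high-KLF4 day 8 cells and keratinocytes, at 5380.3 and 5367, did not pass the test (log2 -0.34, 95% interval -0.75 to 0.07, limma adjusted p = 0.224).

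S100a14 had 269.5 and 846 in high-KLF4 cells on day 8, against 60.8 and 101 in low-KLF4 cells, a 6.10-fold difference (log2 2.61, SE 0.46, limma adjusted p = 0.019). The groups did not overlap, but high-KLF4 array 2 lay far above array 1, and the log2 difference was 2.15 within array number 1 and 3.07 within number 2. On days 2, 4 and 18 it was at 73.0, 162 and 277 in high-KLF4 cells, against 62.7, 46.1 and 62.5 in low-KLF4 cells. Day 2 was thus the only day on which the high-KLF4 signal was near that of low-KLF4, unlike Sprr1b and Sprr3, whose high-KLF4 signals were highest then. Keratinocytes, at 4077 and 4267, were far above high-KLF4 day 8 cells (log2 -3.13, SE 0.46, limma adjusted p = 0.00167).

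S100a3, which in skin belongs to the hair cuticle, was at 768 and 1526 in high-KLF4 cells, against 265 and 335 in low-KLF4 cells, a 3.63-fold difference (log2 1.86, SE 0.29, limma adjusted p = 0.0123). On days 2, 4 and 18 it was at 632, 719 and 615 in high-KLF4 cells, against 446, 348 and 136 in low-KLF4 cells. The low-KLF4 signals were thus above the 96.5 to 125 of the clones on the early days. Keratinocytes had only 154 and 173 and mESCs 85.3 and 107, so day 8 high-KLF4 cells were 6.63-fold above keratinocytes (adjusted p = 0.000339, limma).

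S100a1, best known from heart and skeletal muscle, and its neighbour S100a13, involved in the release of proteins that lack a signal peptide, showed smaller differences. S100a1 was at 1283 and 1971 in high-KLF4 cells on day 8, against 839 and 636 in low-KLF4 cells (2.18-fold, log2 1.12, SE 0.19, limma adjusted p = 0.0178). S100a13 was at 441 and 450.2 in high-KLF4 cells, against 298 and 237 in low-KLF4 cells (1.68-fold, log2 0.75, SE 0.14, limma adjusted p = 0.024). Neither pair of groups overlapped. The log2 difference within array number 1 was 0.614 for S100a1 and 0.565 for S100a13, and within number 2 it was 1.632 and 0.927. On day 18 the order was turned, with 1625.5 in high-KLF4 cells and 1981 in low-KLF4 cells for S100a1 and 437 in high-KLF4 cells and 454 in low-KLF4 cells for S100a13. Without low-KLF4 array 2 the adjusted p was 0.0851 for S100a1 and 0.109 for S100a13, and without high-KLF4 array 2 it was 0.114 for S100a13 (limma).

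S100a8 and S100a9 form calprotectin, an antimicrobial dimer abundant in neutrophils and in stressed epidermis. S100a8 had 56.3 and 54.3 in high-KLF4 cells, against 54.5 and 50.8 in low-KLF4 cells on day 8, and S100a9 75.6 and 65.3 in high-KLF4 cells, against 79.3 and 67.9 in low-KLF4 cells. Neither passed the test between the cassettes (limma adjusted p = 0.736 and 0.856), and the 95% intervals of the log2 differences were -0.09 to 0.23 and -0.29 to 0.17. In keratinocytes S100a8 reached 645 and 666, against 51.5 and 53.0 in mESCs, and S100a9 432 and 443, against 56.6 and 59.1. The 18 myeloid and neutrophil markers had summed signals of 2960 and 2537 in keratinocytes, against 3164 and 3120.2 in mESCs. Of these markers 1, Ltf, was higher in keratinocytes and 8 were lower, and their part in the S100a8 and S100a9 signals was not tested. S100a9 was also slightly higher in day 8 cells than in the clones of either cassette, with 55.2 and 55.4 in high-KLF4 clones and 55.6 and 56.3 in low-KLF4 clones (log2 0.35 and 0.39, limma adjusted p = 0.033 and 0.029).

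S100a4, S100a6, S100a10 and S100a11, which are known from fibroblasts or as annexin partners, did not pass the test between cassettes. S100a4 had 1799.9 and 882 in high-KLF4 cells, against 1014 and 174 in low-KLF4 cells on day 8 (log2 1.59, SE 0.71, limma adjusted p = 0.325). In each cassette array 2 was the lower of the pair, as for the fibroblast markers, and the groups overlapped. Without low-KLF4 array 1 the log2 difference was 2.86, and within array number 2, with 1 array per cassette, it was 2.34. Over days 2, 4 and 18 S100a4 was at 3228, 2548.5 and 712 in high-KLF4 cells, against 2303, 1161 and 686 in low-KLF4 cells, and keratinocytes, at 100.2 and 115, were below every other group. S100a6 was at 4413 and 4523 in high-KLF4 cells, against 3695 and 2479 in low-KLF4 cells, and unlike S100a4 it was as high in keratinocytes, at 4986 and 4765, and lower in the clones, at 931 and 696 for high-KLF4 and 1195 and 791 for low-KLF4 (log2 -0.13 for high-KLF4 day 8 minus keratinocytes, limma adjusted p = 0.871). S100a10 was at 9081 and 6755 in high-KLF4 cells and at 8259.6 and 6589 in low-KLF4 cells, and S100a11 at 9444 and 9177 in high-KLF4 cells and at 9216 and 8505 in low-KLF4 cells. Both were above the median of every array. S100a2, S100a5 and S100a7a differed between cassettes by 0.09 to 0.34 on the log2 scale without passing the test.

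Days 2, 4 and 18 have a single array per cassette and no test. On day 2, 6 of 46 genes had at least a 2-fold higher signal in high-KLF4 cells, namely Sprr1a, Sprr1b, Sprr2b, Sprr3, S100a16 and S100a7a, against 1% of all tested probes. On day 4 there were 8, namely Sprr1a, Sprr1b, Sprr2b, Sprr3, S100a3, S100a4, S100a14 and S100a16, against 1.64%, and on day 18 there were 6, namely Sprr1a, Sprr1b, Sprr2b, S100a3, S100a14 and S100a16, against 0.867%. No member was 2-fold lower on day 2, 4 or 18, where 0.0641%, 0.641% and 0.094% of all tested probes were. High-KLF4 exceeded low-KLF4 on all 3 days, and on both day 8 arrays, in 8 genes: Sprr1a, Sprr1b, Sprr2b, S100a3, S100a6, S100a14, S100a16 and Lce3c, against 7.2% of all tested probes. Taking the 5 high-KLF4 and 5 low-KLF4 arrays of days 2 to 18 together with day as a block, Sprr1b (log2 2.52, SE 0.19), Sprr1a (2.84, SE 0.32) and S100a16 (1.73, SE 0.14) were higher in high-KLF4 cells (limma adjusted p = 0.0177, 0.042 and 0.0177), which is 3 of 46 genes where 0.158% of all tested probes were higher and 0.00427% lower, none of the 46 among them, and 14 had an unadjusted p under 0.05. This count fell to 0 when low-KLF4 day 4, low-KLF4 day 8 array 2, high-KLF4 day 4 or high-KLF4 day 8 array 1 was left out, and to 1 without low-KLF4 day 8 array 1 or high-KLF4 day 8 array 2.

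With both cassettes in one fit, day 8 was compared with day 2 (limma, cassette as a block). Of 46 genes, 0 were higher and 0 lower, where 0.466% and 0.543% of all tested probes were. An unadjusted p under 0.05 was found for 14 of 46 in this limma fit, and the share of all tested probes at that level was not computed. The lowest adjusted p was that of Lce1h, an envelope gene, with 243 and 185 on day 8 in high-KLF4 cells and 146 and 242 on day 8 in low-KLF4 cells, against 399 in high-KLF4 cells and 561 in low-KLF4 cells on day 2 (log2 -1.25, SE 0.24, adjusted p = 0.0747). The day 8 comparison of cassettes shares its arrays with these fits, so they do not add independent samples.

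Setting the day 8 cells against the clones asks which genes were higher in the intermediates than in the pluripotent cells derived with the same cassette. In high-KLF4, 15 of 46 genes exceeded their level in the clones on day 8 by the test and 0 were below it, where 13.5% of all tested probes were higher and 14.7% lower. They were the 9 genes that differed between the cassettes together with S100a6, S100a7a, S100a9, S100a10, Sprr2g and Lce3b. The last 2 had low signals: Sprr2g read 32.1 and 36.8 on day 8, against 28.2 and 29.2 in high-KLF4 clones. Lce3b read 54.6 and 43.9, against 32.3 and 34.1. Sprr2g lay below the lower quartile on 16 of the 18 arrays and Lce3b on all 18. S100a16 had a log2 difference of 4.05 (SE 0.18), S100a14 of 3.30 (SE 0.46), S100a3 of 3.27 (SE 0.29) and S100a6 of 2.47 (SE 0.37) (limma adjusted p = 3.35e-06, 0.00119, 0.00015 and 0.00162). In low-KLF4, 4 of 46 (8.7%) were higher, near the 8.43% of all tested probes, and 0 were lower, against 10.8%. The 4 were S100a16 (log2 2.20, SE 0.18), S100a6 (1.64, SE 0.37), S100a3 (1.44, SE 0.29) and S100a9. No SPRR gene was among the 4, and Sprr1a read 381 and 269 on day 8, against 265 and 194 in low-KLF4 clones (limma adjusted p = 0.156). The 15 and the 4 rest on different arrays, and whether the cassettes differed was tested by the interaction.

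By that test Sprr1a, Sprr1b, Sprr3 and S100a16, 4 of the 46 genes, had a larger cassette difference on day 8 than among clones, where 0.671% of all tested probes did so in this direction and 0.154% in the other, and 10 of the 46 had an unadjusted p under 0.05. The difference of differences was 3.63 on the log2 scale for Sprr1a (SE 0.32), 2.72 for Sprr1b (SE 0.21), 2.69 for Sprr3 (SE 0.32) and 1.85 for S100a16 (SE 0.25), with adjusted p of 0.00231, 0.00167, 0.0106 and 0.0167 (limma). For S100a3, Sprr2b, S100a14 and S100a1 it was 1.84, 2.25, 2.59 and 1.10, with adjusted p of 0.115, 0.113, 0.155 and 0.154 (limma). Leaving out low-KLF4 clone A7 or either high-KLF4 clone reduced the count to 2, Sprr1a and Sprr1b, and leaving out high-KLF4 day 8 array 1 gave 8.

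The clones were set against mESCs, both pluripotent. Of 46 genes, 0 were higher and 0 lower in the 4 clones than in the 2 mESC arrays, where 2.02% and 2.28% of all tested probes were, and 5 had an unadjusted p under 0.05 (limma). S100a1 was at 664 and 681 in high-KLF4 clones and at 652 and 675 in low-KLF4 clones, against 395 and 419 in mESCs (log2 0.71, SE 0.17, adjusted p = 0.0552), so no clone overlapped the mESCs. S100a11 was at 8153 and 7024 in high-KLF4 clones and at 8057 and 7607 in low-KLF4 clones, against 6217 and 4119.7 in mESCs (log2 0.60, SE 0.15, adjusted p = 0.0637), and its second probe passed the test (log2 0.58, adjusted p = 0.0472, limma).

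The keratinocytes give the level of the families in cultured epidermal cells. Of 46 genes, 37 were higher in keratinocytes than in mESCs and 0 were lower, where 17.7% and 20.4% of all tested probes were. They were 12 of 13 SPRR genes, Sprr2b being the exception, 15 of 19 LCE genes and 10 of 14 S100A genes. The largest differences were those of Sprr1b (95.6-fold), S100a14 (81.0-fold), Sprr1a (69.3-fold), Sprr2d (24.1-fold) and Sprr2j-ps (23.2-fold), with adjusted p between 1.73e-08 and 1.62e-05 (limma). The median log2 difference was 2.55 for SPRR genes, 0.52 for LCE genes and 1.22 for S100A genes. Among LCE genes Lce1a1, at 192 and 151 in keratinocytes, against 39.5 and 41.3 in mESCs, differed the most (log2 2.08). The count was 16 when the dimmest 30% of probes were left out, a filter that keeps 19 of the 46 genes.

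**Figure D4:**
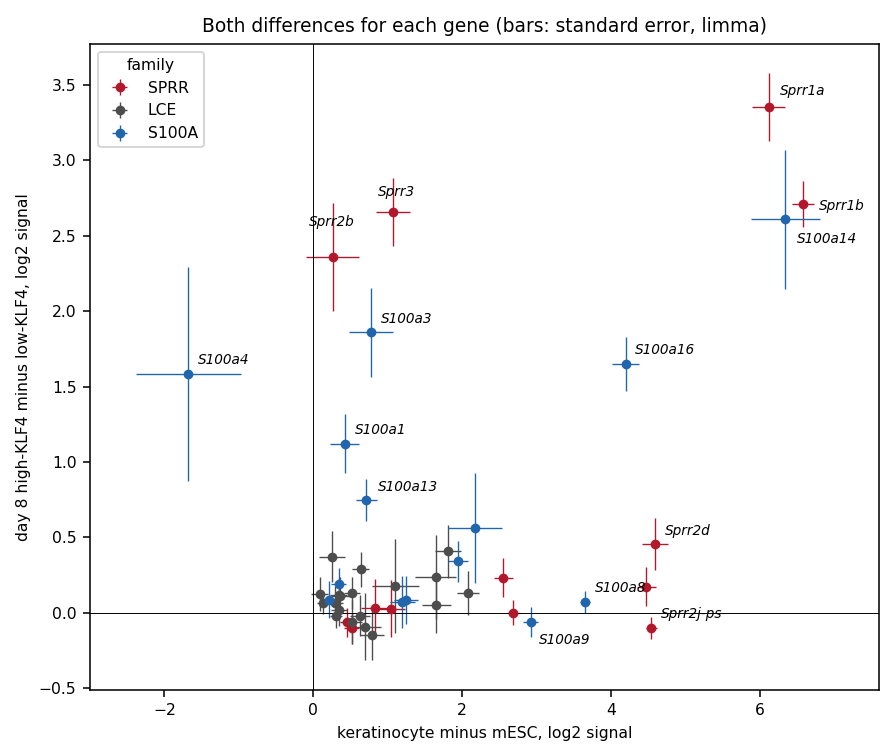
Log2 difference of day 8 high-KLF4 minus low-KLF4 (vertical axis) against that of keratinocyte minus mESC (horizontal axis) for the 46 genes, with standard errors from limma as bars and colours by family. Sprr1a, Sprr1b, S100a14 and S100a16 are high on both axes, Sprr2d, Sprr2j-ps, S100a8 and S100a9 lie to the right near a vertical value of 0, and Sprr3, Sprr2b, S100a3 and S100a1 lie high with keratinocyte differences between 0.26 and 1.07.

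High-KLF4 day 8 cells were then set against keratinocytes. Of 46 genes, 25 were lower in day 8 high-KLF4 cells than in keratinocytes and 5 were higher, where 11.4% and 13.1% of all tested probes were. The 5 higher were S100a4 (11.7-fold), S100a3 (6.63-fold), Sprr2b (5.65-fold), Sprr3 (3.25-fold) and S100a1 (2.92-fold). The largest decreases were those of Sprr2j-ps (log2 -4.50, SE 0.07), Sprr2h (-4.26, SE 0.13), Sprr2d (-4.18, SE 0.17), Sprr1b (-3.57, SE 0.15) and S100a8 (-3.57, SE 0.07), with adjusted p between 3.73e-08 and 1.98e-06 (limma). All 13 SPRR genes differed, 2 upward and 11 downward, as did 9 of 19 LCE genes, all downward. Fibroblast markers moved with this contrast, 13 of 22 being higher in high-KLF4 cells, with summed signals of 71535 and 31233 in high-KLF4 cells, against 12401 and 11229 in keratinocytes; S100a4 is known as a fibroblast gene, and the part of fibroblast content in its difference was not tested.

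Crossing the calls, which share the day 8 high-KLF4 arrays and the keratinocyte arrays, sorts the genes into groups. Sprr1a, Sprr1b and S100a14 were higher in high-KLF4 than low-KLF4, higher in keratinocytes than mESCs, and lower in high-KLF4 than keratinocytes. S100a13 and S100a16 were higher in both, with no call between keratinocytes and high-KLF4 cells. Sprr3 was higher in both but above the keratinocyte level, and S100a1, S100a3 and Sprr2b were higher in high-KLF4 cells without passing the test in keratinocytes. Another 22 genes, 9 SPRR, 9 LCE and 4 S100A, including both calprotectin genes, were higher in keratinocytes, did not pass the test between the cassettes, and were lower in high-KLF4 than in keratinocytes. Between the cassettes only 2.71% of all tested probes were higher and 1.29% lower, so most probes lack that call. The share of all tested probes with each of these patterns was not computed.

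Other genes of the cornified envelope and its complex outside the 3 families were measured beside them. Of 30 measured, 6 were higher in high-KLF4 cells on day 8 and 0 lower, where 2.71% and 1.29% of all tested probes were. Their median log2 difference was 0.72, against -0.025 over all tested probes. Asprv1, a protease that processes filaggrin, was at 609 and 1245 in high-KLF4 cells, against 106 and 105 in low-KLF4 cells (log2 3.05, limma adjusted p = 0.0009), and Tgm3, a transglutaminase that cross-links envelope proteins, was at 2085 and 6095 in high-KLF4 cells, against 482 and 760.5 in low-KLF4 cells (log2 2.56, adjusted p = 0.0149, limma). Ivl, Evpl, Cst6 and Dmkn were the other 4. Cnfn (log2 2.29) and Tgm1 (2.00) had large values without passing the test (limma adjusted p = 0.106 and 0.0761), and the lowest values were -0.20 for Lelp1, -0.09 for Flg2, -0.03 for Hrnr and -0.01 for Rptn. In keratinocytes 23 of the 30 were higher than in mESCs, but not Tgm3, which was at 132 and 127 in keratinocytes, against 228 and 258 in mESCs.

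Of 28 measured regulators of epidermal differentiation, 3 were higher in high-KLF4 cells on day 8 and 0 lower, where 2.71% and 1.29% of all tested probes were. Their median log2 difference was 0.27, against -0.025 over all tested probes. Ehf, an epithelial ETS factor, was at 2806 and 2986.5 in high-KLF4 cells, against 577 and 539 in low-KLF4 cells (log2 2.38, limma adjusted p = 0.000935). Ovol1, a zinc-finger repressor of the epidermis, was at 445 and 974 in high-KLF4 cells, against 147 and 174 in low-KLF4 cells (log2 2.04, adjusted p = 0.0157, limma), and Elf5, another ETS factor, was 1.78 higher on the log2 scale (adjusted p = 0.0424, limma). Prdm1 followed (1.24, not passing the test), and the lowest were Zfp750 (-0.61), Tfap2a (-0.48), Klf5 (-0.44) and Klf4 (-0.25), none past the threshold. Trp63, the master factor of basal keratinocytes, had a log2 difference of -0.20 between cassettes and was 3.18 higher on the log2 scale in keratinocytes than in mESCs. Of 16 partners and receptors of S100 proteins and S100 genes elsewhere, only Anxa11 was higher in high-KLF4 cells (log2 0.93, adjusted p = 0.0238, limma), so this list gives a single call, where 2.71% of all tested probes were higher. Anxa11 had 1937 and 2577 in high-KLF4 cells, against 1047 and 1318 in low-KLF4 cells. Anxa1 (0.98), Ahnak (0.56) and Tlr4 (0.48) did not pass the test, nor did S100pbp (-0.25), Ager (-0.17), Cd36 (-0.11) and S100b (-0.11), the lowest.

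The day 8 calls between cassettes depended on sharing the spread of the groups with 2 arrays, as groups with 1 array add none. With the 4 compared arrays alone, 0 of the 46 genes and 0% of all tested probes passed after adjustment. The t-test that the methods name gave the same 0 and 0%. On day 8 the median gap between paired arrays (absolute log2) was 0.206 with the high-KLF4 cassette, 0.175 with the other. For clones, keratinocytes and mESCs it ran from 0.083 to 0.12. The shared spread may therefore be too small for day 8 arrays, and the limma p-values of comparisons that use them too low. Within array number 1 and within array number 2 there is 1 array per cassette, so only differences are given. The log2 differences of the 9 genes ran from 0.565 (S100a13) to 2.947 (Sprr3) within number 1. Within number 2 they ran from 0.927 (S100a13) to 3.811 (Sprr1a).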

How the data were processed

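Signals were measured on Affymetrix Mouse Gene 1.0 ST arrays. The deposited intensity values were made by the authors with robust multiarray averaging (RMA) in GeneSpring and are on a linear scale, not centred. Of 28853 probes, 21789 carried 1 symbol, 1621 several and 5443 none in the platform annotation, and the 23410 with a symbol were tested on the log2 scale. limma 3.58.1 (R 4.3.3) was fitted to 18 arrays in 12 groups (6 residual and 2.25 prior degrees of freedom). P-values were adjusted over all 23410 probes by Benjamini-Hochberg, with a threshold of 0.05. A fit of 10 arrays with day as a block had 5 residual degrees of freedom. Genes were named by rule: members called between the cassettes, the 5 largest called changes each way elsewhere, the 2 largest and 2 smallest day 8 differences of each family, S100a4, S100a6 and S100a8 to S100a11, and the 4 extremes each way of each gene list. The members and lists were chosen with earlier results of these data known. Day 8 array numbers paired the cassettes in the data (r = 0.735 between array 2 minus array 1 differences) but not by the labels. Alternatives were another normalization, limma-trend, a filter on dim probes, the compared arrays alone, the methods' t-test, a replicate block and arrays left out. The scripts were tested on simulated data. Promoter windows came from RefSeq (GRCm38.p6). Tables and figures were made in Python 3.11.15 with matplotlib 3.10.9, scipy 1.17.1, numpy 2.4.6 and pandas 2.3.3. Day 6, MEF and TROP2-sorted arrays were not analysed here.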

Additional observations from a re-analysis of the deposited data

Results flagged for a closer look

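For 4 genes the difference between cassettes was larger on day 8 than in the iPSC clones by an interaction test over all arrays (limma). On the log2 scale the high-KLF4 minus low-KLF4 difference on day 8 exceeded that in the clones by 3.63 for Sprr1a (adjusted p = 0.00231), 2.72 for Sprr1b (adjusted p = 0.00167), 2.69 for Sprr3 (adjusted p = 0.0106) and 1.85 for S100a16 (adjusted p = 0.0167).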

How the results depend on the processing

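Of 238 recomputed counts, 206 stayed within 1.5 times the reported count and 32 did not, and of 571 recomputed differences of single genes 509 kept their direction and their side of the threshold, 22 lost significance, 5 gained it and 35 changed sign or came to 0, all of them in day 8 differences between cassettes that passed the threshold neither as reported nor in that setting. The 9 genes higher in high-KLF4 on day 8 became 0 with the compared arrays alone and 0 by the methods' t-test, and 7 to 10 with single arrays left out. The 15 genes higher on day 8 than in high-KLF4 clones became 0 by the methods' t-test and 10 to 16 with single arrays left out. The 4 genes higher on day 8 than in low-KLF4 clones became 2 with the compared arrays alone and 1 to 5 with single arrays left out (2 without low-KLF4 day 8 array 1, 1 without clone A9), and the 0 lower became 0 to 1. For keratinocytes against mESCs, 37 higher became 16 without the dimmest 30% of probes and 12 by the methods' t-test (29 to 35 with single arrays left out), and 0 lower became 1 with the compared arrays alone. For high-KLF4 day 8 against keratinocytes, 25 lower became 11 without the dimmest 30% of probes and 13 with the compared arrays alone (20 to 25 with single arrays left out). The 0 genes higher in clones than in mESCs became 1 with limma-trend, 2 with the compared arrays alone and 0 to 1 with single arrays left out. The 8 genes at least 2-fold higher on day 4 had 0 lower counterparts, and at 1.5-fold there was 1, Lce1c.

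The log2 differences that changed sign ran, with single arrays left out, between -0.078 and 0.042 for Lce6a, -0.097 and 0.099 for Sprr2g, -0.17 and 0.0499 for S100a9, -0.19 and 0.54 for Lce1h, -0.066 and 0.12 for Sprr2k, -0.13 and 0.30 for S100a10, -0.063 and 0.095 for Lce1a2, -0.054 and 0.017 for Lce1d, -0.055 and 0.19 for Lce1f, -0.089 and 0.27 for S100a5, -0.17 and 0.24 for Sprr2i, -0.21 and 0.026 for Lce1i, -0.37 and 0.085 for Lce1j, and -0.26 and 0.14 for Lce1k. With the second quantile normalization Lce6a had 0.0056. Without array 1 of both day 8 groups the values were -0.021 for S100a5, 0 for Lce1e and -0.39 for Lce1h. Without array 2 of both day 8 groups the values were -0.064 for Sprr2g, -0.16 for Sprr2i, -0.0029 for Sprr2k, 0.0019 for Sprr4, 0.0088 for Lce6a, -0.11 for Lce1a2, 0.022 for Lce1d, -0.093 for Lce1f, 0.068 for Lce1j and 0.14 for Lce1k.

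With the array number as a replicate block, the day 8 count was 10 (adding S100a4), where 7.48% of all probes were higher and 5.1% lower, against 2.71% and 1.29% without the block, the count over days 2 to 18 was 5, against 3 without the block (0 to 3 with single arrays left out), and the interaction count was 7, against 4 (2 to 8). The labels do not say what the day 8 array numbers share. In settings chosen after seeing the data, leaving array 1 out of both day 8 groups gave 0 genes higher between cassettes over days 2 to 18. It gave 3 lower on day 8 than day 2 (Lce1h, S100a4 and S100a5). Leaving array 2 out of both gave 4 and 0. These settings leave 1 day 8 array per cassette, so their counts between cassettes on day 8 and by interaction are not given. Signals below the array median have no detection call, which limits statements on the LCE genes and on low SPRR genes.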
